A study of Mus musculus with 4 samples.

Results

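The immediate early response genes described here are Egr1, Fos, Fosb, Jun, Junb, Atf3, Ier2, Ier3, Klf6 and Myc. They were taken as a fixed list of 10 genes, out of 23403 named genes on the array, by matching the RefSeq transcript of each probe to its gene. The list was matched by 13 probes, and all 10 genes had at least 1 probe above background on every array. Whole liver RNA of male mice was measured on 4 Agilent 1-colour arrays, 1 for each group. The control group was naturally aged mice with no drug. The diabetic group was aged mice with type 2 diabetes left untreated, the metformin group was such mice given metformin, and the combination group was such mice given astragalus polysaccharide together with metformin. Metformin is a biguanide that lowers blood glucose, and the polysaccharide is prepared from the root of Astragalus plants. All titles carry 60 d, without saying what the time counts from. The sources used here do not give strain, age, the way diabetes was induced, the doses, or whether RNA of several mice was pooled for an array. The series asks how the drugs bear on liver mRNA of aging diabetic mice.

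Immediate early genes are transcribed within minutes of a stimulus from factors that are already present in the cell, with no new protein needed. Growth factors, cytokines and stress reach them through mitogen-activated protein kinases, serum response factor with its ternary complex partners, and CREB. Most of their products are transcription factors, and their mRNAs are short-lived. In liver they are known for their response to partial hepatectomy, to injury and to the handling of tissue before RNA is taken.

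A level is given here as log2 of a probe's processed signal minus the 75th percentile of its array, so that 0 is that percentile, and a difference is the level on 1 array minus that on another. Each group has a single array, so group differences could not be tested, and a difference of at least 2-fold (1 in log2) was counted. The error beside a difference is the scanner software's own error of the spots. It covers neither mice, RNA preparations nor hybridizations, and repeated spots of the same probe gave a smaller SD of 0.11 for a difference between any 2 of the arrays. On this bulk tissue, fewer cells of a type and less RNA per cell cannot be told apart.

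The diabetic array was the lowest of the 4 for 8 of the 10 genes, and for none was it the highest. The exceptions were Jun, whose combination value lay only 0.01 below the diabetic value, and Junb, which was lowest on the metformin array. The metformin array was highest for 4 genes (Fos, Fosb, Jun and Klf6), the control array for 3 (Egr1, Junb and Atf3) and the combination array for 3 (Ier2, Ier3 and Myc). Egr1 had the widest spread over the arrays, 12.7-fold. The summed hepatocyte markers were above background on every array, while their sum and those of other cell types differed between arrays, as given at the end.

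**Figure D1:**
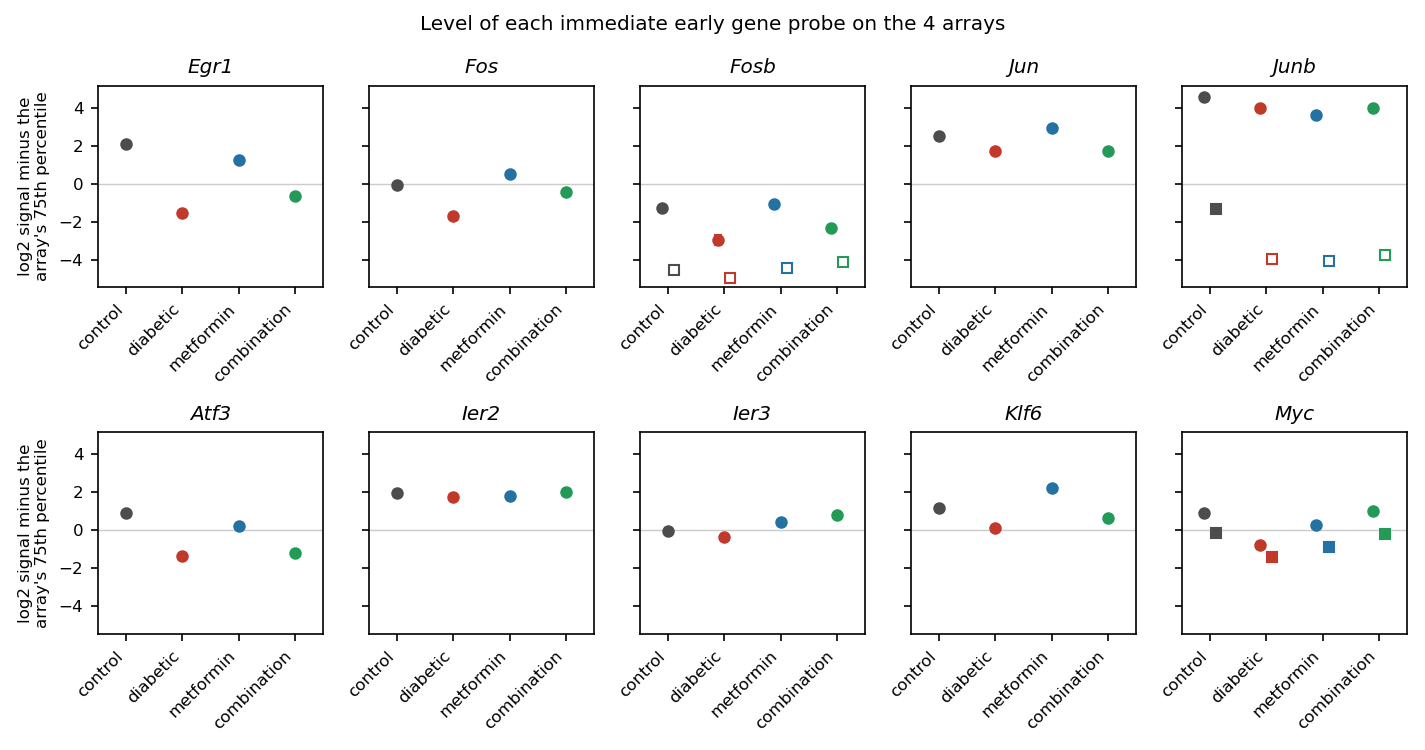
Level of every probe of the 10 genes on the 4 arrays, as log2 signal minus the array's 75th percentile, with the software's spot error as bars where the probe was above background. Circles and squares are different probes of a gene, and open symbols were not above background. Egr1 spans from -1.55 on the diabetic to 2.11 on the control array, while Ier2 stays between 1.78 and 2.04.

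Egr1, a zinc finger factor that links growth and stress signals to later gene programmes, varied most. Its level was 2.11 in the control, -1.55 in the diabetic, 1.27 in the metformin and -0.65 in the combination liver. The control and metformin arrays were thus high and the other two were low. Egr1 was 12.7-fold lower on the diabetic than on the control array, a difference of -3.66 ± 0.18 (spot error), which placed it 30th from the lowest of 13472 genes measured on both. It was 7.08-fold higher on the metformin than on the diabetic array, 45th from the highest of 13897 genes. Between the combination and the diabetic array it differed by 0.90 ± 0.19, just short of 2-fold, and it was 3.80-fold lower on the combination than on the metformin array.

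The AP-1 proteins are dimers, such as those of JUN members with each other, with FOS members or with ATF3, which bind DNA through a basic leucine zipper. The 250 bases before the start of Fos, Fosb, Jun, Atf3 and Klf6 are shown because these 5 genes were higher by at least 2-fold on the metformin than on the diabetic array. The sequences are RefSeq's, in build GRCm38.p6, with Fos at chr12:85473640-85473889 on the plus strand, Fosb at chr7:19310046-19310295 on the minus strand, Jun at chr4:95052223-95052472 on the minus strand, Atf3 at chr1:191183334-191183583 on the minus strand and Klf6 at chr13:5861239-5861488 on the plus strand. They read 5′ to 3′ up to the base before the start, and capitals mark the short motifs found on either strand.
Fos: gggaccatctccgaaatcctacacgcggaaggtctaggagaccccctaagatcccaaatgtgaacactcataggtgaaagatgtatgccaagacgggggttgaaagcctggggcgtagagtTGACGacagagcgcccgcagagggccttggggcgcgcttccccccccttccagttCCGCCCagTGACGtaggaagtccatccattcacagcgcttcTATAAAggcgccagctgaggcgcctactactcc
Fosb: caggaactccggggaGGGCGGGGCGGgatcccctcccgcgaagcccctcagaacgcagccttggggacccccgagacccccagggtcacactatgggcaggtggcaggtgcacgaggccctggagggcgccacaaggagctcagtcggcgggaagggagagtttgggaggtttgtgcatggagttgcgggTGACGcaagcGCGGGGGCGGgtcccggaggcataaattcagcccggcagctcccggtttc
Jun: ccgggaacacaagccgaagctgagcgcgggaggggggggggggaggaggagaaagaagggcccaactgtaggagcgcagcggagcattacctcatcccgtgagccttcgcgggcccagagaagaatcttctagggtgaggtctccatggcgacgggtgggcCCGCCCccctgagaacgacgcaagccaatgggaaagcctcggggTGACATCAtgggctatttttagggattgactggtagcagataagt
Atf3: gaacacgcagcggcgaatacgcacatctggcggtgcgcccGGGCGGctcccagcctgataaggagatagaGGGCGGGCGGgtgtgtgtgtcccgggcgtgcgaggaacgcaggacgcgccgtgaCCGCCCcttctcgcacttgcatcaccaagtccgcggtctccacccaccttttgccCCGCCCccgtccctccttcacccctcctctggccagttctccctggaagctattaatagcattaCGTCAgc
Klf6: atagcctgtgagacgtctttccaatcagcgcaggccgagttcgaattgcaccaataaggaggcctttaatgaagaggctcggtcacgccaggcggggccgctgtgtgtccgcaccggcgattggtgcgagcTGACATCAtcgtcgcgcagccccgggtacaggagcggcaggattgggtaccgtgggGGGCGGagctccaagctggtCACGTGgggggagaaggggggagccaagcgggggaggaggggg

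The search covered both strands of these windows and of Junb and Ier3, the 7 members with an entry in the table. Neither the CRE TGACGTCA, the AP-1 site TGANTCA, the NF-kB site nor the CArG box, which serum response factor binds, matched in any of the 7. In the same window of all 32851 promoters they matched in 1.55%, 6.75%, 1.41% and 1.47%. The CRE half-site TGACG was found in Fos at 129 to 125 and at 66 to 62 bases before the start. It was also found in Fosb, Atf3 and Junb, so in 4 of 7 members against 17.8% of all promoters. The JUN-type site TGACNTCA, which includes the CRE, was found as TGACATCA in Jun at 45 to 38 and in Klf6 at 119 to 112 bases before the start, against 7.49% of all promoters. Fosb carried the EGR site GCGNGGGCG at 50 to 42 bases before the start, in a stretch that overlaps a GC box, and 4.70% of promoters hold this site. The GC box GGGCGG was in 6 of 7 members, all except Junb, and in 32.7% of promoters, Klf6 held the E-box CACGTG (6.02%) and Fos the TATA box TATAAA (12.4%). A match is a run of letters and not a measured binding site. A missing match covers only these letters within these windows, so it does not show that a gene lacks such a site. Sites farther from the start or with other letters were not searched for, and members without an entry were not searched.

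Fos, the partner of JUN proteins in the classical AP-1 dimer, had levels of -0.07 on the control, -1.67 on the diabetic, 0.51 with metformin and -0.41 with both drugs. It was lowest on the diabetic array and highest on the metformin array. It was 3.03-fold lower on the diabetic than on the control array and 4.55-fold higher on the metformin than on the diabetic array. It was 2.40-fold higher on the combination than on the diabetic array, a difference of 1.26 ± 0.19.

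Fosb, a close relative of Fos that also pairs with JUN proteins, was read by 2 probes. Its probe above background stood at -1.28 on the control, -2.96 on the diabetic, -1.07 with metformin and -2.33 with both drugs. The diabetic and combination arrays were low and the other two high. It was 3.20-fold lower on the diabetic than on the control array (-1.68 ± 0.29) and 3.69-fold higher on the metformin than on the diabetic array (1.88 ± 0.28). A second Fosb probe was not well above background on any array and gives no difference.

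Jun, which can pair with itself or with FOS and ATF proteins, stood at 2.53 on the control, 1.75 on the diabetic, 2.95 with metformin and 1.74 with both drugs. The diabetic and combination values differed by 0.01, well within the spot error of 0.16. Jun was 2.29-fold higher on the metformin than on the diabetic array and 2.31-fold lower on the combination than on the metformin array, and differed from control to diabetic by -0.78 ± 0.16, short of 2-fold.

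Junb, a JUN member that often restrains JUN activity, did not share this pattern. Its bright probe stood at 4.56 on the control, 3.99 on the diabetic, 3.62 with metformin and 4.02 with both drugs. None of the 6 differences between arrays reached 2-fold, and the largest was -0.94 ± 0.16 between the metformin and control arrays. A second Junb probe was above background on the control array alone, at -1.34. It was at least 4.73-fold lower on the diabetic array, at least 5.62-fold lower with metformin and at least 4.95-fold lower with both drugs, so the 2 probes of Junb disagree. For each bound the dimmer array was taken at the lowest signal that any probe had above background there, or at this probe's value if that was larger.

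Atf3, a stress-induced factor of the ATF and CREB family that can repress as well as activate, stood at 0.92 on the control, -1.36 on the diabetic, 0.25 with metformin and -1.22 with both drugs. Like Egr1 it was high on the control and metformin arrays and low on the other two. It was 4.85-fold lower on the diabetic than on the control array (-2.28 ± 0.18), 3.05-fold higher on the metformin than on the diabetic array and 2.77-fold lower on the combination than on the metformin array. The combination and diabetic arrays differed by 0.14 ± 0.19, less than the spot error.

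Klf6, a zinc finger factor of the Krüppel-like family induced in injured liver, stood at 1.17 on the control, 0.10 on the diabetic, 2.20 with metformin and 0.65 with both drugs. The metformin array was the high value. Klf6 was 2.11-fold lower on the diabetic than on the control array, 4.31-fold higher on the metformin than on the diabetic array and 2.94-fold lower on the combination than on the metformin array. It was 2.05-fold higher on the metformin than on the control array, a call lost with median centring (0.88), while with spike-in scaling Fos (1.24), Ier3 (1.11) and Jun (1.07) passed 2-fold there as well.

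Myc, the growth regulator that dimerizes with MAX, was read by 2 probes. In the order control, diabetic, metformin and combination, the first stood at 0.92, -0.77, 0.30 and 0.99. The second stood at -0.15, -1.40, -0.88 and -0.21 in the same order. Both probes placed the diabetic array lowest and the control and combination arrays highest. Their mean was 2.77-fold lower on the diabetic than on the control array (-1.47 ± 0.12) and 2.78-fold higher on the combination than on the diabetic array (1.47 ± 0.12), 179th from the highest of 14105 genes. Between the combination and control arrays Myc differed by 0.00 ± 0.12. Between the metformin and diabetic arrays the mean of the probes was 1.74-fold higher, with the probes at 1.06 and 0.53 in log2.

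Ier3, a stress-induced regulator of cell survival, stood at -0.02 on the control, -0.38 on the diabetic, 0.44 with metformin and 0.82 with both drugs. It was 2.29-fold higher on the combination than on the diabetic array (1.19 ± 0.17) and 1.79-fold higher than on the control array. Ier2, a nuclear protein induced early by growth factors, stood at 1.98 in the control liver, 1.78 in the diabetic, 1.79 with metformin and 2.04 with both drugs. No 2 arrays differed in Ier2 by more than 0.26, against a spot error of 0.16.

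Between the diabetic and control arrays all 10 members were lower on the diabetic array, and 6 by at least 2-fold: Egr1, Atf3, Fosb, Fos, Myc and Klf6. Of all 13472 genes measured, 5.69% were at least 2-fold lower and 5.98% higher. The median of the members was -1.27 and that of all genes -0.11. Klf6 lay closest inside the 2-fold mark at -1.07 and Jun closest outside at -0.78. The direction of all 10 genes was the same under each of 11 other ways of processing, while Klf6 lost the 2-fold mark under 3 of them.

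Between the metformin and diabetic arrays 9 members were higher on the metformin array and 6 of the 10 by at least 2-fold, namely Egr1, Fos, Klf6, Fosb, Atf3 and Jun, against 8.81% of 13897 genes (3.54% were at least 2-fold lower). The median was 1.40 for the members and -0.11 for all genes. Junb differed by -0.37 ± 0.16, which turned to 0.10 with arrays set equal on spike-in RNA, and Ier2 by 0.01 ± 0.16, which turned to -0.12 with median centring. This comparison uses the same single diabetic array as that with the control, so a low value there enters both.

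Between the combination and diabetic arrays 3 of the 10 members were at least 2-fold higher on the combination array, Myc, Fos and Ier3, against 3.98% of 14105 genes (5.79% were at least 2-fold lower). The median was 0.59 for the members and 0.04 for all genes. Jun, Junb and Atf3 lay between -0.01 and 0.14, and each of these 3 changed sign under at least 1 other way of processing. Ier3 lost the mark (0.96) when each array was scaled on its own unflagged probes. The untreated diabetic array is again the shared reference.

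Between the combination and metformin arrays 5 of the 10 members were at least 2-fold lower on the combination array, Egr1, Klf6, Atf3, Fosb and Jun, against 8.73% of 14360 genes (2.62% were at least 2-fold higher). The medians were -1.06 for the members and 0.10 for all genes. Fos was 1.89-fold lower, just outside the mark. Myc was 1.60-fold higher on the combination array, at 0.68 ± 0.12. Junb, Ier3 and Ier2 differed by 0.40, 0.38 and 0.25, and each of these 3 turned negative with spike-in scaling. The 5 lower members were also among those at least 2-fold higher on the metformin than on the diabetic array. Both comparisons use the same single metformin array, so a high value there enters both.

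Set beside the control array, the members' median with metformin was 0.01, and 1 of the 10 (Klf6) was at least 2-fold higher, against 8.09% of 13503 genes (5.72% were at least 2-fold lower). That median ran from -0.14 with median centring to 0.67 with spike-in scaling, and the count from 0 to 4. On the combination array 3 of the 10 members were at least 2-fold lower than on the control array, against 5.9% of 13842 genes (4.6% were at least 2-fold higher). They were Egr1 (6.79-fold), Atf3 (4.40-fold) and Fosb (2.07-fold), and Fosb lost the mark in 4 of the 11 other ways of processing.

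**Figure D2:**
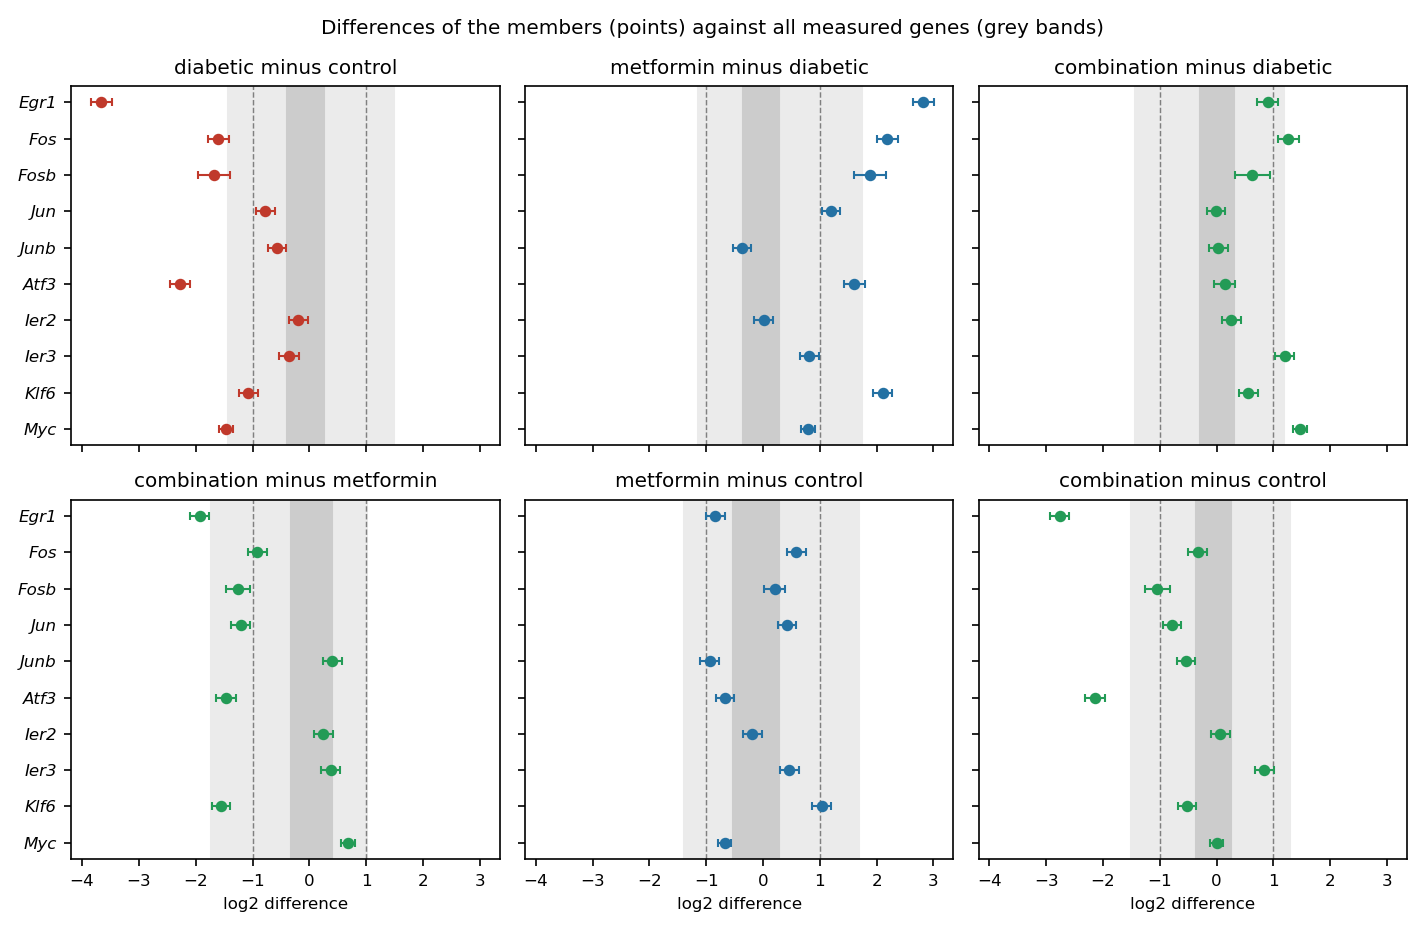
Differences in log2 of the 10 genes between pairs of arrays, with the software's spot error as bars. Dark and light grey bands hold the central 50% and 95% of all measured genes, and dashed lines mark 2-fold. In the panel of the diabetic minus the control array all 10 points lie below 0, from -3.66 to -0.20.

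The median profile of the 10 genes, each centred on its own mean, was 0.42 on the control, -0.94 on the diabetic, 0.65 with metformin and -0.20 with both drugs. Fosb (0.18), Fos (0.24), Jun (0.28) and Klf6 (0.31) lay nearest to it by root mean square distance over the 4 arrays in log2, and Egr1 (0.93) and Junb (0.70) lay farthest. Among 3655 other genes above background on all arrays and spanning at least 2-fold, the nearest to this profile were Ccl17, a chemokine (0.06), Podn, a matrix proteoglycan (0.08), Lats1, a Hippo pathway kinase (0.08), Rhox5, a homeobox gene (0.09), C130050O18Rik (0.09) and Art4 (0.09). Nearest to Egr1 were Ttc39a (0.28), Asns, the asparagine synthetase gene (0.34), Obp2a (0.40) and Gm38416 (0.41). Over 4 arrays many genes come close to any profile, and these distances are descriptions.

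**Figure D3:**
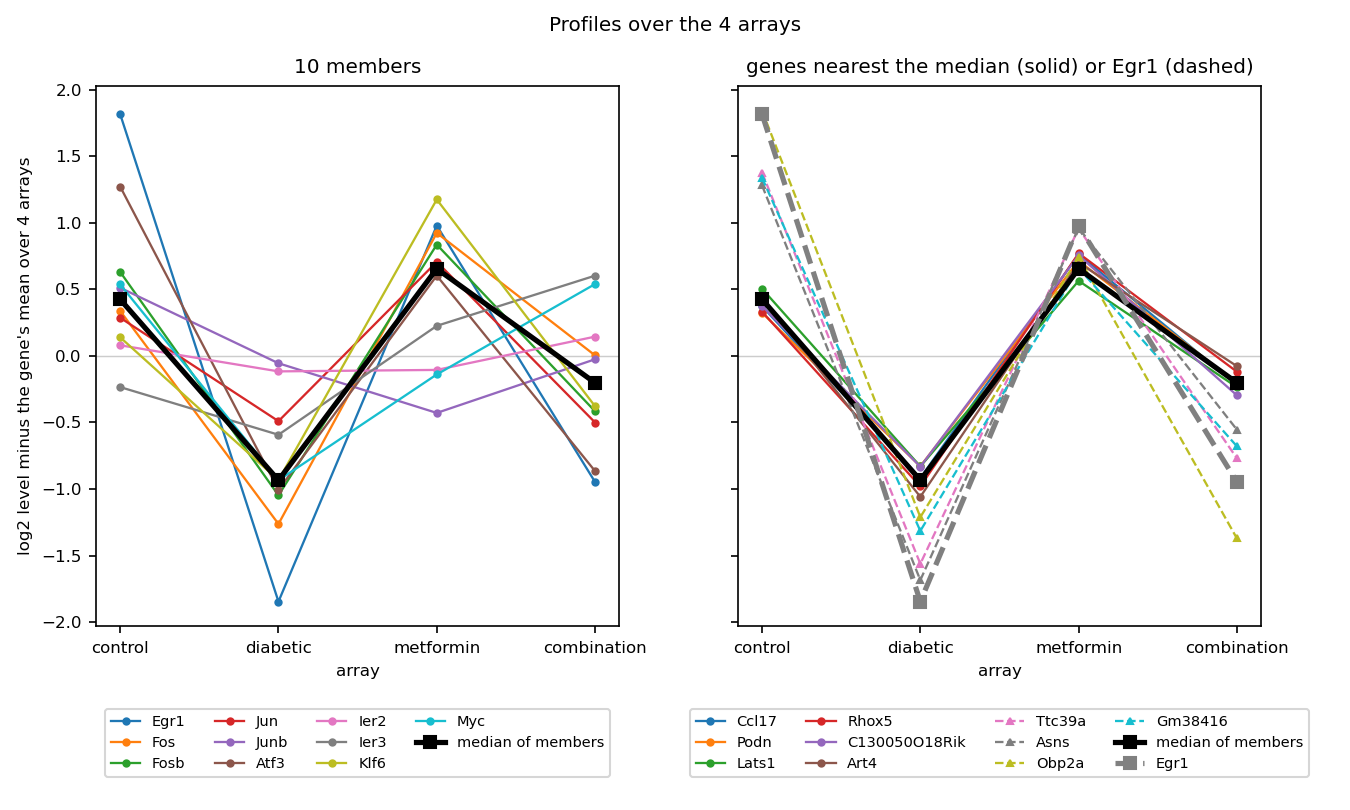
Profiles over the 4 arrays, each gene's log2 level minus its own mean, for the 10 members (left) and for the genes nearest to their median or to Egr1 (right). Lines join the values of a gene and are no time course. Most members dip on the diabetic array, where the median is -0.94, while Junb is lowest on the metformin array.

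Other early response genes were read from lists of relatives and regulators. Their counts stand beside the following shares of all genes at least 2-fold apart. On the diabetic against the control array 5.69% were lower and 5.98% higher. On the metformin against the diabetic array 3.54% were lower and 8.81% higher. On the combination against the diabetic array 5.79% were lower and 3.98% higher, and against the metformin array 8.73% lower and 2.62% higher. Of 11 measured relatives of AP-1, 2 were at least 2-fold lower on the diabetic than on the control array and none higher: Maff (-1.90) and Fosl2 (-1.31). On the metformin against the diabetic array 2 of 10 were at least 2-fold higher, the lymphocyte and myeloid factors Batf (1.42) and Batf2 (1.40). Both counts of 2 ran from 1 to 3 over the other ways of processing. On the combination against the metformin array Batf (-2.06), Batf3 (-1.63) and Batf2 (-1.48) were at least 2-fold lower.

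Nr4a1, an orphan nuclear receptor induced with Egr1, had the same order as Fos. It stood at -1.42 on the diabetic against the control array, 2.28 on the metformin against the diabetic array, 1.13 on the combination against the diabetic array and -1.16 on the combination against the metformin array. Egr2 was not well above background on the diabetic and combination arrays. It was at least 7.65-fold lower on the diabetic than on the control array and at least 6.31-fold higher on the metformin than on the diabetic array. Egr3 ran the other way, above background on the diabetic array only, and there by 1 of its 3 probes. It was at least 3.13-fold higher there than on the control array, and at least 4.53-fold lower with metformin and at least 3.99-fold lower with both drugs than on the diabetic array. Egr4 was not well above background on any array, and Nr4a2, Nr4a3 and Nab2 were within 2-fold in all 6 comparisons.

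Among 11 measured relatives of Ier2, Ier3 and Klf6, 1 was at least 2-fold lower on the diabetic than on the control array, the Krüppel-like factor Klf4 (-1.29). Of all genes 5.69% were so. Klf4 was also the only such gene at least 2-fold higher on the metformin than on the diabetic array (1.61), against 8.81% of all genes. Other ways of processing gave up to 3 there. Both counts of 1 are near the share of all genes. On the combination against the diabetic array Klf4 (1.5 in log2), Klf2 (1.34), an endothelial shear stress factor, and Klf13 (1.29) were at least 2-fold higher.

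Of 19 other measured early response genes, 8 were at least 2-fold lower and 2 higher on the diabetic than on the control array. The lowest were Tiparp, an ADP-ribosyltransferase (-3.58), and Socs3, the cytokine feedback inhibitor (-2.66), and the 2 higher were Ccn1, a matricellular protein (2.02), and the kinase Plk2 (1.98). On the metformin against the diabetic array 6 of 18 were at least 2-fold higher, led by the antiproliferative gene Btg1 (1.44) and Ccn2 (1.34), and the kinase Pim1 (-1.04) was at least 2-fold lower. Over the other ways of processing this count of higher genes ran from 2 to 9. Of the 25 genes listed, 7 had a probe spot left out as an outlier and no complete set of values.

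Feedback inhibitors of the MAP kinase pathway, which is upstream of most members, were at least 2-fold lower on the diabetic than on the control array in 5 of 11 measured cases (3 to 6 over the other ways of processing). Dusp4, above background on the diabetic array and not on the control, was at least 2.68-fold higher. Dusp5, above background on the control array and not on the diabetic, was at least 2.18-fold lower. Of those measured on both arrays, the phosphatase Dusp2 (-2.14) and the ERK pathway inhibitor Spry4 (-1.77) were lowest. On the metformin against the diabetic array 5 of 12 were at least 2-fold higher, led by Dusp2 (2.78) and Dusp8 (2.17), while Dusp4 was at least 3.88-fold lower. On the combination against the metformin array Dusp10 (-1.61), Dusp2 (-1.56) and Dusp8 (-1.10) were at least 2-fold lower.

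Of 28 measured upstream kinases and factors, 5 were at least 2-fold lower on the diabetic than on the control array, led by the growth factor receptor gene Egfr (-2.28) and Elk4 (2.83-fold), a ternary complex factor. That count ran from 3 to 5 over the other ways of processing. None of 26 differed by 2-fold between the metformin and diabetic arrays, although other ways of processing gave up to 2 higher and up to 1 lower. On the combination against the diabetic array the kinase gene Map2k6 (2.14) and Elk4 (1.02) were at least 2-fold higher, and against the metformin array Map2k6 (1.91), Elk1 (1.12) and Egfr (1.05), with counts of 1 to 3 and 1 to 5 over the other ways of processing. Serum response factor, Srf, stayed between -0.05 and 0.11 in all 6 comparisons, a gene named after its values were seen. MYC partners had 2 of 10 at least 2-fold lower and 1 higher on the diabetic than on the control array: Mxd1 (-1.29) and Mnt (-1.12), both MAX partners that oppose MYC, and the MYC relative Mycl (2.32). Mycn, another MYC relative, was not above background on the diabetic and combination arrays. Against the control array it was at least 2.78-fold lower on the diabetic and at least 3.03-fold lower on the combination array. With metformin it was at least 3.22-fold higher than on the diabetic array. The count of lower genes ran from 1 to 4 over the other ways of processing.

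Genes that share stimuli with the members were also read. Of 8 measured NF-kB feedback and early cytokine genes all were lower on the diabetic than on the control array, 6 by at least 2-fold, among them Cxcl1, a neutrophil chemokine (-3.30), and Ccl2, a monocyte chemokine (-1.94). On the metformin against the diabetic array Ccl2 (3.87) and the cytokine gene Il1b (1.30) were among those at least 2-fold higher. Heat shock genes ran otherwise. None of 10 differed by 2-fold between the diabetic and control arrays, while 6 of 11 were at least 2-fold lower on the metformin than on the diabetic array, led by Hspa1a (-3.07) and Hsph1 (-2.91), a count that ran from 3 to 7 over the other ways of processing. On the combination against the diabetic array 6 of 11 were at least 2-fold lower, led by Hspa1a (-4.99) and Hspa1b (-3.83). In the ATF4 and CHOP stress arm the signs were mixed: on the diabetic against the control array Asns (-2.96) and Chac1 (-2.73) were lowest and Trib3 (1.99) was highest.

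**Figure D4:**
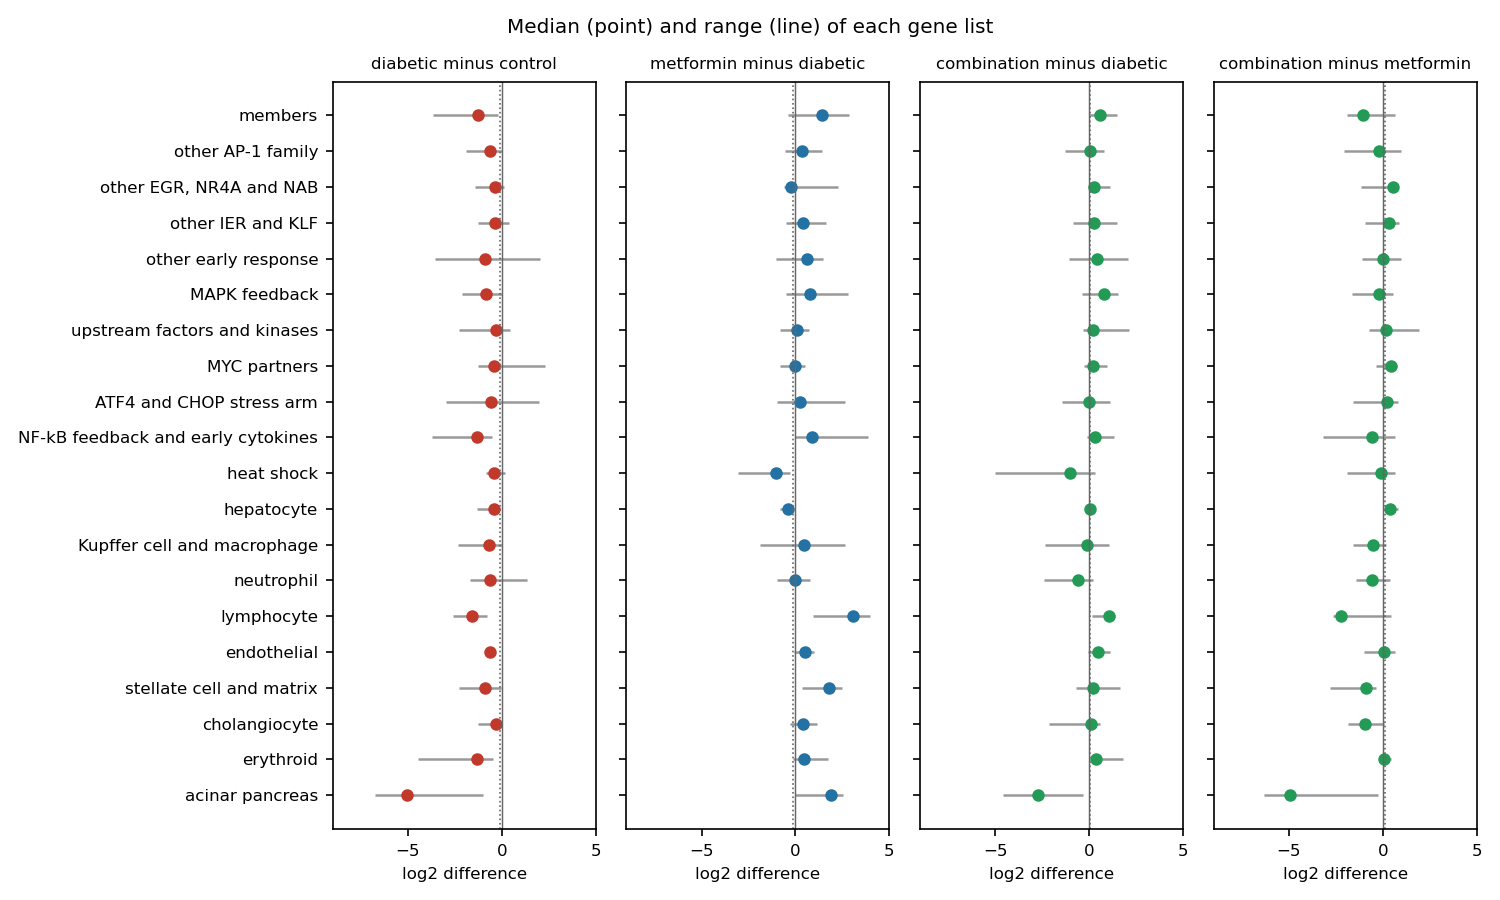
Median (point) and range (line) of the log2 difference of each gene list in 4 comparisons of arrays, with the median of all genes as a dotted line. The members' median is -1.27 for the diabetic minus the control array and 1.40 for the metformin minus the diabetic array. The acinar pancreas list reaches the lowest median, -5.03, in the former comparison.

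Markers of other cell types differed between the arrays along with these genes. Their levels were summed on the linear scale, in units of the array's 75th percentile, over markers with a value on all 4 arrays, in the order control, diabetic, metformin and combination. All 9 summed hepatocyte markers were above background on every array, with sums of 429.6, 331, 245 and 336. The 10 lymphocyte markers summed to 7.34, 2.40, 20.3 and 4.46, with Cd79a not above background on any array and Ms4a1 above it on the metformin array only. The 8 stellate cell and matrix markers summed to 32.5, 16.7, 35.6 and 21.2. The 10 Kupffer cell and macrophage markers summed to 135, 86.9, 109 and 76.7, and the 8 endothelial markers to 61.8, 41.2, 50.4 and 50.8. The 7 neutrophil markers summed to 49.5, 33.5, 31.8 and 35.6, with Elane and Ngp not above background on the metformin and combination arrays. A sum leans on its brightest markers, and here single markers ran otherwise. Of 5 neutrophil markers measured on the combination and diabetic arrays, 4 were lower on the combination array (median -0.60 in log2). Against the control array all 6 measured were lower on the combination array (median -2.11). The 6 erythroid markers summed to 88.5, 54.7, 58.5 and 71.4, and the 5 cholangiocyte markers, with Cftr above background on the metformin array only, to 5.86, 3.97, 5.20 and 2.64. The 9 acinar pancreas markers summed to 142, 18.3, 32.5 and 10.9, and 6 of them were not above background on the combination array. The sums of the lymphocyte, stellate cell, endothelial and erythroid lists were, like the levels of 8 members, lowest on the diabetic array. Their part in the members' differences was not tested.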

How the data were processed

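Members, lists and tests were chosen with earlier results of these data known. Each array's intensities were deposited by the authors as scanner output of Feature Extraction 11.5.1.1, already corrected for background per the file headers, whereas version 10.7 of that Agilent software stands in the submitters' processing notes. The authors also deposited log2 values, normalized in GeneSpring per the labels' protocols by an unstated method. Each column of them had a median of 7.84 and followed the log2 processed signal of its array (r from 0.9989 to 1.0 over probes), so scale and direction are known and the normalization is not. Spots flagged as non-uniform or population outliers (2.18% to 5.35% per array) were left out, and none of them was a member's. No spot was saturated. The flag of a spot well above background was deposited by the authors with the intensities, and a probe needed it in at least 50% of its spots.

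Log2 processed signals were scaled on the 75th percentile of the probes with a value on all 4 arrays, since the share of spots left out differed between arrays. Its signal ran from 1159 (control) to 1649 (metformin), and the arrays lay on 1 slide with 1 scan time. Of 56605 probes 33635 (59.6%) were named through RefSeq's GRCm38.p6 table. A gene was the mean over its probes above background on both arrays. No model was fitted, since there is 1 array per group. The calculation recovered planted differences in simulated data. This checks the calculation only, since the simulation held no variation between mice or RNA preparations. All members were named. Some genes of the other lists are not reported here by name. Of other lists the text could name the 2 highest and lowest genes, and those past 2-fold when they were 5 or fewer. Genes of like pattern were the nearest 6 to the median profile and 4 to Egr1. Python 3.11.15 and limma 3.58.1 (normexp only, on median signals) were used. The number of arrays limits the precision.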

Additional observations from a re-analysis of the deposited data

How the results depend on the processing

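Over 11 alternatives (scaling, background correction, the authors' values, filters, probe choice) 19 of the 24 member differences of at least 2-fold stayed past 2-fold in all, and none of the 24 changed sign. The other 5 were Klf6 (diabetic against control -0.95 to -0.88 in 3 alternatives, metformin against control 0.88 with median centring), Ier3 (combination against diabetic, 0.96) and Fosb (combination against control -0.97 to -0.32 in 4 alternatives, and against metformin -0.47 without the background filter, where its dim probe enters the mean). Counts of members past 2-fold stayed within 1.5 times except for metformin against control. There 1 was higher and 0 lower; median centring gave 0 higher and 1 lower, spike-in scaling 4 higher, and normexp and no background filter 1 lower each. The median over members ran from -1.34 to -1.08 (diabetic against control), 1.19 to 1.88 (metformin against diabetic), 0.35 to 0.65 (combination against diabetic), -1.58 to -0.69 (combination against metformin), -0.14 to 0.67 (metformin against control, so its sign is not settled) and -0.64 to -0.31 (combination against control).

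Spike-in scaling moved the median of all genes from -0.11 to 0.36 for metformin against diabetic and from -0.19 to 0.46 for metformin against control. It shifts every gene of an array by the same amount. The members' median relative to that of all genes (1.51 and 0.20) therefore could not change. The lower share of all genes past 2-fold was 48.8% (31.5% to 50.5%) for diabetic against control, 28.7% (6.08% to 42.2%) for metformin against diabetic, 59.3% (56.9% to 80.7%) for combination against diabetic, 76.9% (67.7% to 96.7%) for combination against metformin, 41.4% (6.08% to 58.0%) for metformin against control and 56.2% (41.7% to 67.9%) for combination against control. No paired analysis was possible because each group has 1 array. No array could be left out. Signal over background limits the dim probes of Fosb and Junb.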
